A study of Mus musculus with 7 samples.

Results

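A set of 10 genes of the Notch pathway (the members) was followed through single-nucleus transcriptomes of mouse small cell lung cancer (SCLC), a neuroendocrine lung tumor. They were taken by gene symbol from a fixed list and all 10 were found among the 56941 genes of each count matrix. By role they were 5 ligands (Dll1, Dll3, Dll4, Jag1 and Jag2), 3 receptors (Notch1, Notch2 and Notch3) and 2 transcription factors of the HES family (Hes1 and Hes6). RP tumors arose in male mice with floxed Rb1 and Trp53 alleles (Rb1 fl/fl, Trp53 fl/fl), and RPC tumors in male mice that additionally lacked Casp8, written Casp8-/- in the sample labels and described as a conditional deletion in the study design. All tumors were induced in young adult mice by an inhaled adenovirus that carried Cre behind the CMV promoter, which is active in many cell types, so recombination was limited to the cells reached by the virus. Endpoint tumors from 2 animals of each genotype (RP1, RP2, RPC1 and RPC2) were frozen, and their nuclei were barcoded by split-pool labelling and sequenced in 7 sublibraries that each held all 4 animals. The animal was therefore the replicate. The age of each animal at endpoint was not given in the sources used here.

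Notch signaling passes between touching cells. A ligand of the Delta-like or Jagged family on the surface of the sending cell binds a Notch receptor on its neighbor, the receptor is cleaved by an ADAM protease and by gamma-secretase, and the released intracellular domain enters the nucleus, where it joins RBPJ and Mastermind-like coactivators. HES1, a repressor of the basic helix-loop-helix class, is a direct target of that complex and represses neuroendocrine fate. HES6 is an atypical family member that opposes HES1. DLL3 is an atypical Delta-like protein that acts within the sending cell rather than activating receptors on neighbors and is found on SCLC cells, where it is used as a drug target. In blood vessels, endothelial cells carry NOTCH1 and DLL4, and mural cells (pericytes and smooth muscle) carry NOTCH3 and respond to JAG1.

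The upstream sequences of 4 members are shown because the results below turn on their transcripts and because Notch and HES proteins act at such sites. Each is the 250 bases before the annotated start of the canonical transcript (GENCODE annotation on GRCm39), printed 5' to 3' on the strand of the gene. Capitals mark matches to the RBPJ core, which reads TGGGAA and on the other strand reads TTCCCA. They also mark a single form of the E-box, the site of many basic helix-loop-helix activators, which reads CAGCTG on either strand. Other forms of the E-box were not searched, and E-box below means CAGCTG. The last motif marked is the N-box of HES repressors, which reads CACNAG and on the other strand reads CTNGTG. None of the capitalized matches overlap.
Hes1: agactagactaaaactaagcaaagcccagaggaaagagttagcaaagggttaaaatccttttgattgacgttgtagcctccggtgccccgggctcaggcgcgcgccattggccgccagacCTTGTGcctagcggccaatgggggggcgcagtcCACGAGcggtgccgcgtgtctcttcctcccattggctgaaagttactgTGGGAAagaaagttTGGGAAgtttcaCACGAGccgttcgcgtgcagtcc
Hes6: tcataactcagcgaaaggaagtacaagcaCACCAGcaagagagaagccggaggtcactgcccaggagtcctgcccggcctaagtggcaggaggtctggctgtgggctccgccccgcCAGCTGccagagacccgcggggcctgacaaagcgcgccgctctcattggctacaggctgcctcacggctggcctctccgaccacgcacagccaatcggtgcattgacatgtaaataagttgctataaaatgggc
Dll3: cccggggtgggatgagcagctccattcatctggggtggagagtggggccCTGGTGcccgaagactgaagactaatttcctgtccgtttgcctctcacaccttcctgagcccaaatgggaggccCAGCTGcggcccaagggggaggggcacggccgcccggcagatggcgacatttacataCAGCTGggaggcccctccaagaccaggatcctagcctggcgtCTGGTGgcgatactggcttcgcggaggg
Jag2: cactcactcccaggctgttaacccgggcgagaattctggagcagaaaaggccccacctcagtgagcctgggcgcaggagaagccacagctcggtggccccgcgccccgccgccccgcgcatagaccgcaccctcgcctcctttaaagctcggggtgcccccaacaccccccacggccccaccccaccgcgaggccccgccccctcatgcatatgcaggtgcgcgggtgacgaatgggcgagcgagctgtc
The Hes1 stretch (chr16:29883877-29884126, plus strand) held 2 RBPJ cores, which began 49 and 35 bases before the start, and 3 N-boxes. The Dll3 stretch (chr7:28001674-28001923, minus strand) held 2 E-boxes, beginning 127 and 70 bases before the start, and 2 N-boxes. The Hes6 stretch (chr1:91340961-91341210, minus strand) held 1 E-box at 134 bases and 1 N-box. The Jag2 stretch (chr12:112893438-112893687, minus strand) held none of the 3 motifs in the forms searched. Among the 21769 upstream stretches of the same length, 22.7% held an RBPJ core, 11.9% the E-box and 36.5% an N-box. These are matches of letters and were not measured as bound sites.

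On GRCm39, Dll4, Jag1 and Notch1 share chromosome 2, and Dll1 and Notch3 share chromosome 17. The ligand genes are Dll1 (chr17:15587276-15597134), Dll3 (chr7:27992978-28001673), Dll4 (chr2:119156170-119166443), Jag1 (chr2:136923373-136958693) and Jag2 (chr12:112871421-112893437). The receptor genes are longer, namely Notch1 (chr2:26347915-26406675), Notch2 (chr3:97920800-98057677) and Notch3 (chr17:32339794-32385893). The HES genes are the shortest, Hes1 at chr16:29882134-29886643 and Hes6 at chr1:91339204-91342103. Nuclear counts include unspliced RNA, so a long gene has more sequence from which a transcript can be primed.

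After filtering, 38254 of 38353 nuclei were kept, between 8363 and 10853 per animal, and no barcode was shared between animals. The median nucleus held 2223 to 2255 transcripts in the RP animals and 2767 to 3392 in the RPC animals. Whether more RNA, better capture or deeper sequencing set that difference was not tested. A single ribosomal RNA gene, Rn18s-rs5, took 3.13% to 5.38% of the transcripts in RPC and 8.51% or more in RP. Clusters were named from marker lists without the 10 members, which gave 7053, 7091, 9102 and 8616 tumor-like nuclei. There were also 11 other named classes of 8 to 723 nuclei per animal, and 452 to 654 unnamed nuclei. The unnamed clusters were shallow, and their median share of Rn18s-rs5 ran from 8.90% to 30.6% by cluster. In the tumor-like nuclei 0 of 14 neuroendocrine markers were at 0 in any animal, and their summed level was 4472 to 6684 CPM (counts scaled to the same total in every sum). Neuroendocrine transcripts were not limited to the tumor-like nuclei: the median of these markers in the other named classes lay between 29.2% and 93.6% of its tumor level in the same animal. Part of that came with clusters of high depth, whose median nucleus held at least 2 times the transcripts of its animal's median nucleus. Without them the range was 16.2% to 93.6%. Whether a transcript found at like levels in all classes was made in each of them cannot be told apart here from RNA shared between nuclei.

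By whole-gene counts, none of the targeted genes was lower in both RPC animals than in the RP animals. Casp8 stood at 56.8 and 60.3 CPM in RP and at 91.9 and 66.8 CPM in RPC tumor-like nuclei, a log2 fold change of 0.38 with a standard error (SE) of 0.19 (edgeR, adjusted p = 0.397, 2 animals per genotype). In the order RP1, RP2, RPC1, RPC2, which is kept below wherever 4 values are given, Rb1 stood at 310, 333, 396 and 437 CPM and Trp53 at 12.9, 12.5, 18.8 and 12.6 CPM. Casp8 and Rb1 were higher in both RPC animals, and Trp53 overlapped. Transcripts were counted over the whole gene, including parts outside a deleted exon, so these values check neither the deletion nor the labels.

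Among the ligands in the tumor-like nuclei, Jag2 stood at 104 and 124 CPM in RP1 and RP2, and at 71.0 and 67.5 CPM in RPC1 and RPC2, from 2853 to 3725 transcripts per animal. JAG2 is a Jagged-family ligand that activates Notch receptors on neighboring cells. Dll4, the Delta-like ligand best known from endothelium, was at 16.1, 20.3, 17.5 and 8.21 CPM in the same order. Dll1, a canonical activating ligand, was at 10.9, 11.96, 10.2 and 10.4 CPM. Jag2 was thus lower in both RPC animals, Dll4 was low in RPC2 only, and Dll1 hardly differed between animals. Dll3 was at 10.6 CPM in each RP animal and at 4.65 and 6.48 CPM in RPC1 and RPC2, from 244 to 292 transcripts per animal. Jag1 was at 9.50, 10.9, 7.49 and 5.59 CPM. Both RPC animals were below both RP animals for Dll3 and Jag1 as well.

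Of the receptors, Notch2 was at 33.6, 32.9, 29.3 and 32.8 CPM, nearly level across the animals. Notch1 was at 2.12, 1.69, 2.50 and 1.38 CPM, and Notch3 at 2.05, 4.34, 4.73 and 2.35 CPM. For both of these the genotypes overlapped and 1 animal of each genotype was high. Of the HES factors, Hes1 was at 3.43, 5.19, 5.76 and 5.46 CPM and Hes6 at 12.7, 19.0, 10.04 and 16.1 CPM. Hes1 was lowest in RP1, and the other 3 animals were close together, while Hes6 overlapped between the genotypes.

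**Figure D1:**
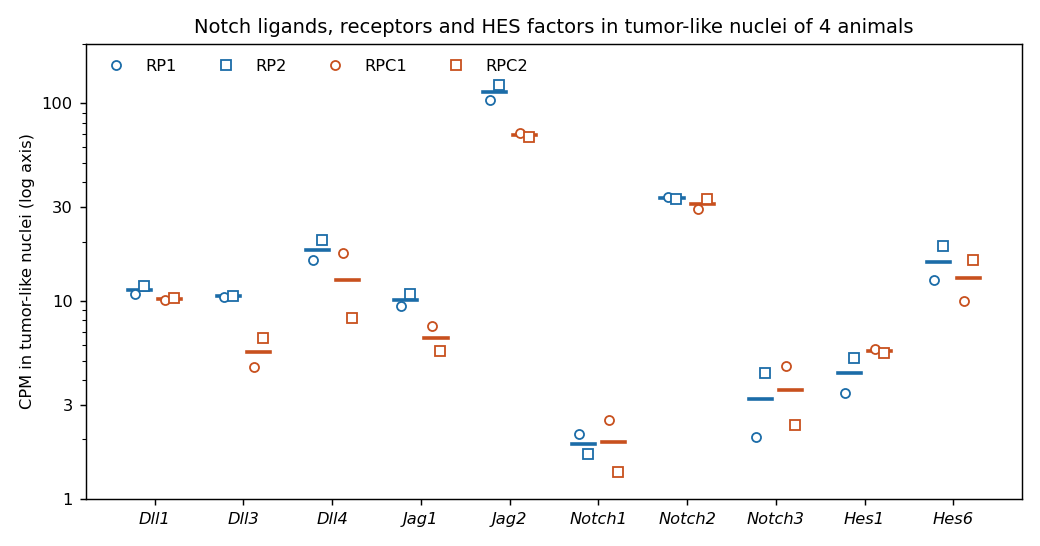
Level of each member in tumor-like nuclei, in CPM on a log axis, with 1 symbol per animal and a bar at the mean of each genotype (blue RP, orange RPC). Jag2 lies at 67.5 to 124 CPM, and both RPC symbols lie below both RP symbols for Dll1, Dll3, Jag1, Jag2 and Notch2.

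Because longer genes collect more transcripts, levels of different genes are set side by side only per length. Per kilobase of gene span, the mean level over the 4 animals was highest for Hes6 (4.99 CPM per kb) and Jag2 (4.17), followed by Dll4 (1.51), Dll1 (1.101), Hes1 (1.099) and Dll3 (0.929). Jag1 (0.237) and Notch2 (0.235) came next, and Notch3 (0.0730) and Notch1 (0.0327) were last. Per kilobase of exon, Jag2 came first at 12.9 CPM per kb, ahead of Hes6 at 5.04, Dll4 at 3.93, Notch2 at 2.85, Dll3 at 2.65, Dll1 at 2.19, Hes1 at 1.47 and Jag1 at 1.40. Notch3 at 0.374 and Notch1 at 0.135 were again last. On both scales the tumor-like nuclei therefore held Jag2 and Hes6 at the top and Notch1 and Notch3 at the bottom. The order of Hes6 and Jag2, and the place of Notch2, changed with the scale.

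The comparison of RPC with RP tumor-like nuclei asked whether loss of Casp8 went with a change in these genes. No member passed the threshold: edgeR's quasi-likelihood test on counts summed per animal called 0 of 10 members and 0 of 20051 genes at an adjusted p under 0.05 (0% called). At an unadjusted p under 0.05, 3 of 10 members and 3043 of the genes tested (15.2%) were reached. DESeq2, run as an alternative, called 671 genes and 0 members. The 3 members were the ligands Jag2, Dll3 and Jag1, all lower in RPC. The log2 fold change was -0.78 (SE 0.15, edgeR, adjusted p = 0.265) for Jag2, -0.99 (SE 0.28, edgeR, adjusted p = 0.285) for Dll3 and -0.70 (SE 0.26, edgeR, adjusted p = 0.320) for Jag1. With DESeq2 the adjusted p was 0.054 for Jag2 and 0.069 for Dll3. The study itself reported Dll3 as lower in RPC on these samples, with DESeq2 at an adjusted p under 0.05. The direction of Dll3 is therefore not independent evidence. That call was not reached here with DESeq2, on tumor-like nuclei chosen by another route.

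The remaining ligands, receptors and HES factors had smaller differences. Dll4 was at a log2 fold change of -0.56 (SE 0.39) and Dll1 at -0.21 (SE 0.21). Among the receptors Notch2 was at -0.16 (SE 0.16), Notch1 at -0.04 (SE 0.42) and Notch3 at 0.09 (SE 0.52). Hes6 was at -0.33 (SE 0.34) and Hes1 at 0.32 (SE 0.31). The median over the 10 members was -0.27, and that over all genes tested was -0.01. Both RPC animals were below both RP animals for Jag2, Dll3, Dll1, Jag1 and Notch2, and above them for Hes1. These 6 of 10 members stand against 50.6% of all genes tested whose animals did not overlap (22.2% lower and 28.4% higher in RPC).

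**Figure D2:**
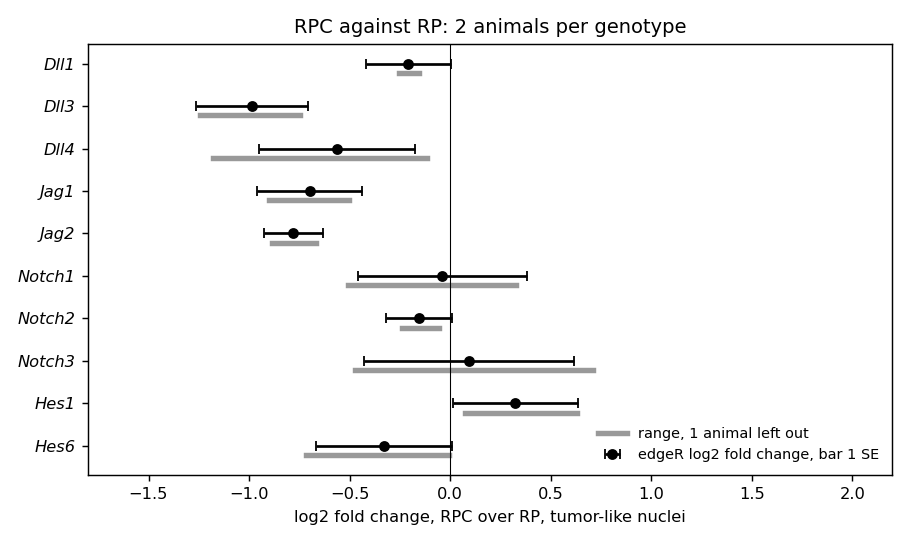
Log2 fold change of RPC over RP in tumor-like nuclei from edgeR, with a bar of 1 SE on each side and, in gray, the range when 1 animal was left out. Jag2, Dll3, Jag1, Dll1 and Dll4 stay below 0 throughout, and the ranges of Notch1 (-0.51 to 0.33) and Notch3 (-0.47 to 0.71) cross it.

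The direction of Jag2 and Dll3 was present in the wells in which the nuclei of an animal received their first barcode. Jag2 was at 99.3 to 145 CPM in the 4 wells of the RP animals and at 58.3 to 76.5 CPM in the 5 wells of the RPC animals. Dll3 was at 9.62 to 11.96 CPM in the RP wells and at 3.66 to 6.84 CPM in the RPC wells. No RPC well reached an RP well for either gene. Wells of an animal share its tumor and are not replicates, so this follows largely from the gap between the animals and adds no support.

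The share of nuclei with at least 1 transcript was compared at an equal depth of 1000 transcripts per nucleus, since the RPC nuclei were deeper. This left out 759, 672, 139 and 394 tumor-like nuclei. Jag2 was detected in 9.69% and 11.6% of the RP nuclei and 6.95% and 6.80% of the RPC nuclei, a difference of -3.75 percentage points. Dll3 was detected in 1.02%, 1.09%, 0.569% and 0.705%, a difference of -0.416 points. Most tumor-like nuclei thus showed neither ligand at this depth. In all, 6 of 10 members (Jag2, Dll3, Dll1, Jag1, Notch1 and Notch2) were found in a smaller share of nuclei in both RPC animals than in either RP animal, and 4 overlapped. With 2 animals against 2, the exact two-sided permutation test cannot go below p = 0.333, which is what these 6 members gave (adjusted p = 0.556 over the 10 members). Without thinning, Dll3 was the 1 member found in a smaller share in both RPC animals, at 3.70%, 3.81%, 2.54% and 3.18% of tumor-like nuclei, and 3 members (Dll1, Notch2 and Hes1) were found in a larger share in both. Jag2 then stood at 27.0%, 29.6%, 27.0% and 23.2%, and 7 members had a larger mean share in RPC, including 5 (Dll1, Dll4, Notch1, Notch2 and Hes6) with a smaller one at equal depth. The median tumor-like nucleus held 3342.5 and 2853.5 transcripts in RPC against 2354 and 2310 in RP.

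Within the tumor-like nuclei, joint detection of members was too rare to set a pattern. For 5 pairs of members in 4 animals, the second gene was found in a larger share of nuclei with the first gene than without it in 8 of 20 cases at 1000 transcripts per nucleus and in 9 of 20 at 2000. No pair was found together in more than 2 nuclei of an animal at 1000 transcripts. Dll3 and Hes6 were found together in 0 to 2 nuclei per animal, on 51 to 70 nuclei with Dll3.

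Tumor-like clusters differed in their members' levels, and each large cluster came mostly from a single animal. These clusters were formed from the same nuclei, so their values are a description without a test. Dll3 was highest in a cluster of 1045 nuclei of RP2, at 18.6 CPM, and reached 13.2 CPM in a cluster of 2134 nuclei of RP1. A cluster with 593 nuclei of RPC1, led by genes of neuronal adhesion and glutamate signaling such as Grik2 and Lrrtm4, had Notch1 at 11.9 CPM. In the other clusters of at least 200 nuclei Notch1 was at 1.1 to 2.8 CPM. The same cluster had the lowest Jag2 level of these clusters, 59.2 CPM over its 692 nuclei of all animals, and the lowest Dll3, 3.1 CPM.

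The receptors were at higher levels in other cell classes of the tumors. In a fit over all classes with the animal as a block, edgeR called 38 of 90 pairs of member and class at an adjusted p under 0.05, of which 33 were higher and 5 lower than in tumor-like nuclei (10.8% and 6.84% of all genes and classes). Dll3 could not be tested there because its counts were too low in the small classes. The 10 classes had different backgrounds: the members called among the 9 tested were 6 in endothelial-like (15.0% of all 13608 genes called), 6 in club-like (17.5%), 5 in alveolar type 1-like (28.7%), 4 in ciliated-like (15.9%), 4 in fibroblast-like (24.0%), 4 in macrophage or monocyte-like (28.7%), 4 in smooth muscle or pericyte-like (13.1%), 3 in alveolar type 2-like (15.9%), 1 in B cell-like (7.66%) and 1 in T or NK cell-like nuclei (9.83%). The receptors took 23 of these calls, all higher than in tumor-like nuclei.

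**Figure D3:**
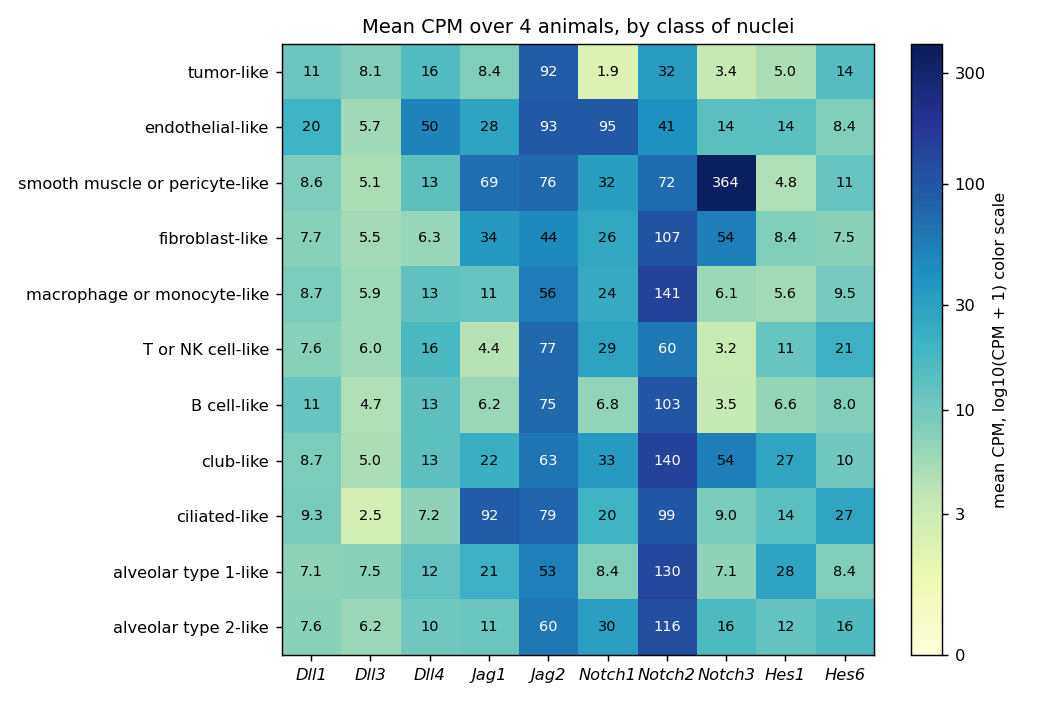
Mean CPM over the 4 animals of each member (columns) in each named class of nuclei (rows), with a color scale on log10(CPM + 1). Notch3 stands out in smooth muscle or pericyte-like nuclei at 364 CPM, Notch1 in endothelial-like nuclei at 94.96, Jag1 in ciliated-like and smooth muscle or pericyte-like nuclei at 91.9 and 69.3, and Dll3 spans 2.46 to 8.08 CPM over all classes shown.

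Notch3, the receptor of mural cells, had the largest difference. In smooth muscle or pericyte-like nuclei it was at 490, 378, 395 and 191 CPM, against 2.05 to 4.73 CPM in tumor-like nuclei. The log2 fold change over tumor-like nuclei was 6.71 (SE 0.26, edgeR, adjusted p = 4.4e-24). At 1000 transcripts per nucleus, Notch3 was found in 30.7% to 45.1% of these nuclei and in 0.223% to 0.558% of tumor-like nuclei. Below this class came fibroblast-like nuclei at 54.0 ± 25.3 CPM (SD, n = 4) and club-like nuclei at 53.9 ± 4.42 CPM, which did not differ beyond their spread, and then alveolar type 2-like nuclei at 16.2 ± 6.63 CPM and endothelial-like nuclei at 13.5 ± 7.13 CPM, which did not either. The log2 fold changes over tumor-like nuclei were 3.83 in fibroblast-like (SE 0.40) and 3.94 in club-like nuclei (SE 0.25), and both passed the threshold.

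Notch1 was highest in endothelial-like nuclei, where it is the receptor of vessel sprouting and arterial fate. It was at 138, 110, 91.6 and 40.5 CPM there, each far above the 1.38 to 2.50 CPM of tumor-like nuclei. The log2 fold change was 5.46 (SE 0.26, edgeR, adjusted p = 7.0e-21). Club-like (33.4 ± 4.11 CPM, SD, n = 4), smooth muscle or pericyte-like (31.7 ± 10.1), alveolar type 2-like (30.4 ± 16.6), T or NK cell-like (28.5 ± 16.1), fibroblast-like (26.1 ± 16.3) and macrophage or monocyte-like nuclei (24.2 ± 5.79) followed without a difference beyond their spread. All of them were above tumor-like nuclei by log2 fold changes of 3.40 to 4.11, and each passed the threshold. The value in alveolar type 2-like nuclei was 3.40, and 4.00 without RPC2, and that in fibroblast-like nuclei was 3.69, and 3.08 without RP2. B cell-like nuclei, at 6.81 ± 0.54 CPM, did not pass it.

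Notch2, the receptor most widely expressed, was highest in macrophage or monocyte-like nuclei at 160, 132, 164 and 107 CPM. Its log2 fold change there was 2.10 (SE 0.17, edgeR, adjusted p = 4.7e-14). Club-like nuclei were at 179, 106, 119 and 156 CPM with a log2 fold change of 2.06 (SE 0.17), and alveolar type 1-like nuclei at 1.92 (SE 0.22). The means of these 3 classes, 141, 140 and 130 CPM, did not differ beyond their spread. Notch2 also rose in B cell-like, alveolar type 2-like, fibroblast-like, ciliated-like and smooth muscle or pericyte-like nuclei, by 1.14 to 1.68. In endothelial-like nuclei (40.9 ± 11.7 CPM) and T or NK cell-like nuclei (60.1 ± 4.94 CPM) it did not pass the threshold.

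Among the ligands, Jag1 was highest in ciliated-like and smooth muscle or pericyte-like nuclei. In smooth muscle or pericyte-like nuclei it was at 80.0, 78.0, 96.2 and 23.2 CPM, against 5.59 to 10.9 CPM in tumor-like nuclei, with a log2 fold change of 3.04 (SE 0.35, edgeR, adjusted p = 2.5e-09). In ciliated-like nuclei, where only RP2 and RPC2 had the 20 nuclei needed for the test, it was at 51.0 and 183 CPM, a log2 fold change of 4.03 (SE 0.52) that became 5.18 without RP2 and 2.53 without RPC2. Jag1 was also higher in endothelial-like (1.55, SE 0.40) and club-like nuclei (1.25, SE 0.36), the former not without RP1 (1.20, edgeR, adjusted p = 0.069). In fibroblast-like nuclei Jag1 was at 120 CPM in RP1 and at 2.22 to 8.68 CPM in the other 3 animals, and the class did not pass the threshold for it.

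Dll4 was higher in endothelial-like nuclei than in tumor-like nuclei in all 4 animals, at 96.2, 48.8, 39.6 and 14.7 CPM. The log2 fold change was 1.48 (SE 0.23, edgeR, adjusted p = 2.4e-06). Dll1 was at 15.3, 23.2, 24.8 and 16.8 CPM in the same nuclei, a log2 fold change of 0.85 (SE 0.26, edgeR, adjusted p = 0.022), which did not pass without RP2 (edgeR, adjusted p = 0.124) or without RPC1 (edgeR, adjusted p = 0.164). In no other class did Dll1 or Dll4 pass the threshold in this fit. Endothelial-like nuclei thus carried transcripts of both a Notch1 receptor and its Delta-like ligands.

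Hes1, the direct target of active Notch, was highest in alveolar type 1-like nuclei at 32.0, 26.2, 30.4 and 22.7 CPM and in club-like nuclei at 9.25, 27.3, 32.4 and 39.2 CPM. These means of 27.8 and 27.1 CPM did not differ beyond their spread, and tumor-like nuclei were at 3.43 to 5.76 CPM. The log2 fold changes over tumor-like nuclei were 2.34 (SE 0.41, edgeR, adjusted p = 1.5e-05) and 2.44 (SE 0.28, edgeR, adjusted p = 2.9e-09). Hes1 also rose in ciliated-like (1.87, SE 0.64) and endothelial-like nuclei (1.35, SE 0.36). The ciliated-like value rests on RP2 and RPC2, at 25.5 and 8.32 CPM, and was 0.60 without RP2 (edgeR, adjusted p = 0.896), 1.80 without RPC1 (edgeR, adjusted p = 0.068) and 2.49 without RPC2. The endothelial-like value did not pass without RPC1 (1.25, edgeR, adjusted p = 0.085). Hes6 went the other way in a single class, macrophage or monocyte-like nuclei (-0.66, SE 0.25, edgeR, adjusted p = 0.047), at 6.81, 14.6, 5.34 and 11.3 CPM, and did not pass with any 1 animal left out (-0.80 to -0.57).

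Jag2 fell in 4 classes relative to tumor-like nuclei: fibroblast-like (-0.89, SE 0.23), macrophage or monocyte-like (-0.75, SE 0.16), alveolar type 1-like (-0.67, SE 0.22) and club-like (-0.48, SE 0.16). The call in alveolar type 1-like nuclei was lost without RP1, RP2 or RPC1 (edgeR, adjusted p = 0.059, 0.078 and 0.097), and that in club-like nuclei without RP1, RP2 or RPC2 (edgeR, adjusted p = 0.095, 0.083 and 0.062). In endothelial-like nuclei its mean was 93.3 ± 23.1 CPM against 91.8 ± 27.3 CPM in tumor-like nuclei (SD, n = 4), which did not differ beyond their spread. That spread includes the difference between the genotypes. Within animals, endothelial-like Jag2 stood at 92.4%, 92.3%, 85.5% and 150% of the tumor-like level. Jag2 was found in 9.52%, 12.6%, 4.60% and 7.79% of endothelial-like nuclei at 1000 transcripts per nucleus, where tumor-like nuclei were at 9.69%, 11.6%, 6.95% and 6.80%. Macrophage or monocyte-like nuclei had it at 3.50%, 3.55%, 1.08% and 1.86%. The median depth before thinning was 2517 to 3382 transcripts in the tumor-like, 2628 to 4136 in the endothelial-like and 3387 to 5037 in the macrophage or monocyte-like nuclei used. Dll3 means lay between 2.46 and 7.54 CPM in the other named classes with a test, on 3 to 60 transcripts per class over all animals, against 8.08 ± 3.00 CPM in tumor-like nuclei. B cells are not known to make Dll3, yet B cell-like nuclei held it at 5.16, 7.32, 0 and 6.24 CPM, on 8 transcripts in all. There 0 of 112, 30, 56 and 64 nuclei had it at 1000 transcripts, which allows shares of nuclei with a transcript of up to 2.68%, 10%, 5.36% and 4.69%. These limits, which cover counting error only, are above the Dll3 shares of tumor-like nuclei, so a difference was not detectable at this depth.

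Neuroendocrine transcripts in the other classes moved with these results, and leaving out the clusters of high depth, a setting chosen after seeing the data, shows by how much. Ciliated-like nuclei were then left out entirely, and 44 of 81 pairs passed, 32 higher and 12 lower. The share of all genes called under this setting is not given here, so these counts are no result about the members alone. In endothelial-like nuclei the neuroendocrine markers then stood at 42.6% to 59.0% of their tumor level in place of 71.6% to 83.4%, and in club-like nuclei at 16.2% to 25.4% in place of 64.1% to 81.5%. Notch1 was then at a log2 fold change of 6.60 (SE 0.26) in endothelial-like and of 5.73 (SE 0.28) in club-like nuclei. Notch3, Notch2 and Hes1 in club-like nuclei were at 5.50 (SE 0.30), 3.48 (SE 0.17) and 3.66 (SE 0.38). Dll4 in endothelial-like nuclei was at 2.42 (SE 0.27). These members thus differed more from tumor-like nuclei in endothelial-like and club-like nuclei once the deep clusters were gone. Smooth muscle or pericyte-like, fibroblast-like, alveolar type 1-like and T or NK cell-like nuclei had no such cluster.

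Jag2 moved the same way with that setting, downward. It was at 0, 31.9, 11.9 and 8.54 CPM in the remaining 14, 60, 230 and 76 club-like nuclei, a log2 fold change of -2.38 (SE 0.31, edgeR, adjusted p = 7.2e-09) in place of -0.48. The log2 fold change was -1.49 (SE 0.21) in macrophage or monocyte-like, -1.78 in alveolar type 2-like and -1.76 in B cell-like nuclei. In the latter pair Jag2 had not passed the threshold before. In club-like nuclei Dll1 (-2.15) and Dll4 (-1.96) fell as well, and Dll3 was left with 1 transcript in all 4 animals. Endothelial-like nuclei kept Jag2 at 78.7, 119, 44.5 and 95.2 CPM. In smooth muscle or pericyte-like and T or NK cell-like nuclei, which had no cluster of high depth, the neuroendocrine markers were at 73.0% to 88.0% and 72.8% to 93.6% of the tumor level. The part of tumor-derived RNA in the levels of Jag2, Dll1, Dll3 and Hes6 in these classes was not tested.

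**Figure D4:**
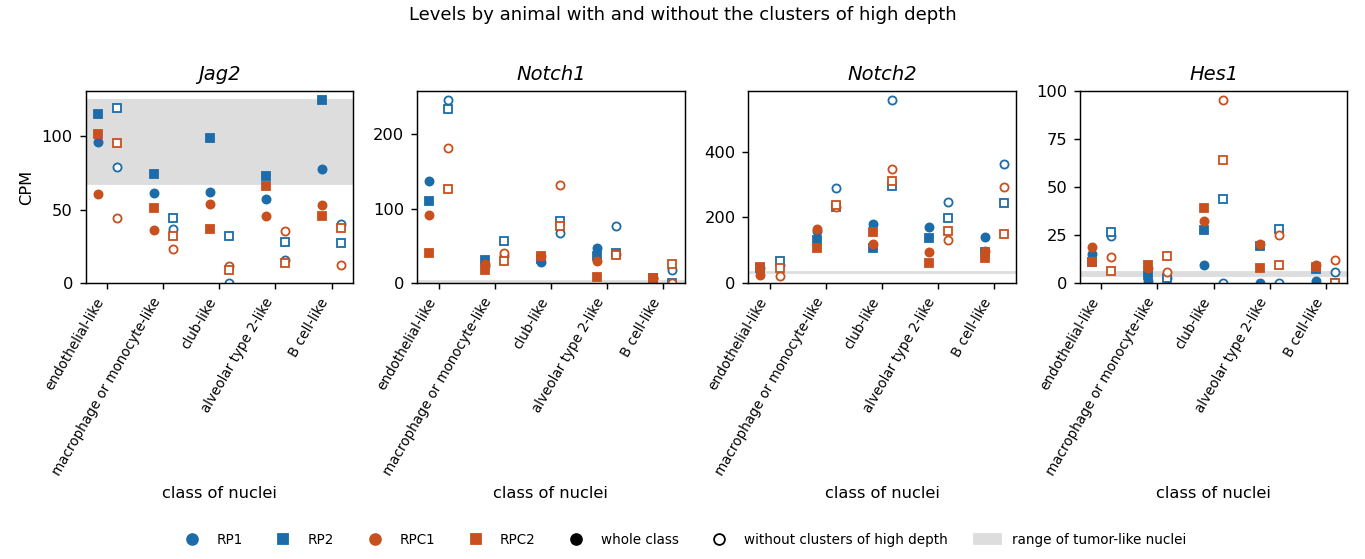
CPM of Jag2, Notch1, Notch2 and Hes1 in 5 classes, per animal, for the whole class (filled) and without its clusters of high depth (open), with the range of tumor-like nuclei as a gray band. Without those clusters Jag2 in club-like nuclei lies at 0 to 31.9 CPM, below the band, while Notch1 in endothelial-like nuclei lies at 126 to 246 CPM.

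Within the other classes, RPC was compared with RP for 46 pairs of member and class, and none passed the threshold. The share of all genes called by edgeR in the same fits was 0% in alveolar type 1-like, alveolar type 2-like, fibroblast-like and T or NK cell-like nuclei, 0.0810% in B cell-like, 0.0525% in endothelial-like, 0.0441% in smooth muscle or pericyte-like, 0.0255% in club-like and 0.00837% in macrophage or monocyte-like nuclei. At an unadjusted p under 0.05 there were 8 pairs, all lower in RPC. The share of all genes at that level in these fits, and its direction, is not given here. The 8 pairs are therefore no result about the members alone. DESeq2 called 0 of the 34 pairs it tested.

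Of these 8 pairs, 3 were in vascular classes (Dll4 and Notch1 in endothelial-like and Dll4 in smooth muscle or pericyte-like nuclei) and 5 in other classes. RPC2 was the lowest animal in each of the vascular pairs. Endothelial Dll4 (96.2, 48.8, 39.6 and 14.7 CPM) had a log2 fold change of -1.53 (SE 0.50, edgeR, adjusted p = 0.305), and endothelial Notch1 (138, 110, 91.6 and 40.5 CPM) one of -1.02 (SE 0.36, edgeR, adjusted p = 0.324). The counting intervals of RPC2 (95%, exact Poisson) were 9.09 to 22.4 CPM for Dll4 and 30.8 to 52.4 CPM for Notch1, below those of the other 3 animals. When RPC1 was left out and RPC2 alone stood for its genotype, the log2 fold change was -2.27 for Dll4 and -1.63 for Notch1. In every fit without RPC1 the spread comes from the RP animals alone, and RPC2 is assumed to vary as they do. Dll4 passed without the filter on low counts (-1.48, edgeR, adjusted p = 0.0057), a setting under which far more genes were called in the other classes. Without RPC2 the log2 fold changes were -0.92 for Dll4 and -0.52 for Notch1. Without the clusters of high depth Dll4 was at -1.30 and Notch1 at -0.74, and Dll4 was at 143, 101, 78.7 and 27.6 CPM.

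RPC2 was also low in mural cells. Notch3 in smooth muscle or pericyte-like nuclei, at 490, 378, 395 and 191 CPM, had a log2 fold change of -0.71 (SE 0.35, edgeR, adjusted p = 0.486), and Jag1, at 80.0, 78.0, 96.2 and 23.2 CPM, one of -0.57 (SE 0.55, edgeR, adjusted p = 0.716). RPC1 did not share the low values, and its Jag1 level was above both RP animals. Without RPC1, Jag1 was at -1.86. The class's own markers moved too: their summed level was 1469, 1020, 1449 and 826 CPM, and the neuroendocrine markers stood at 73.0%, 77.4%, 79.1% and 88.0% of their tumor level. In endothelial-like nuclei the class's own markers summed to 4458, 4253, 6631 and 4189 CPM, where RPC2 was close to RP1 and RP2. The neuroendocrine markers there were at 71.6%, 75.0%, 77.2% and 83.4%, also highest in RPC2. The part of these in the lower values of RPC2 was not tested.

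**Figure D5:**
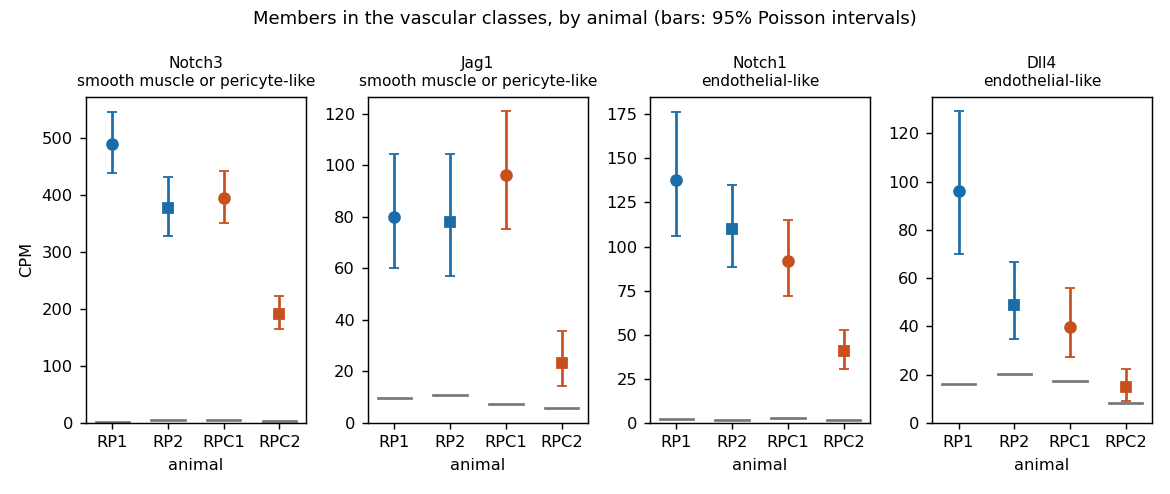
CPM of Notch3 and Jag1 in smooth muscle or pericyte-like nuclei and of Notch1 and Dll4 in endothelial-like nuclei, 1 point per animal with a 95% Poisson interval (counting error only), and a gray line at the tumor-like level of the same animal. RPC2 is the lowest animal in each panel, at 191, 23.2, 40.5 and 14.7 CPM.

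Outside the vessels, Jag2 was lower in RPC in club-like (-0.96, SE 0.30), B cell-like (-1.01, SE 0.36) and macrophage or monocyte-like nuclei (-0.75, SE 0.28), the same direction as in tumor-like nuclei, without passing the threshold. The neuroendocrine markers there stood at 64.1% to 81.5%, 66.2% to 82.6% and 57.8% to 74.1% of their tumor level. Without the clusters of high depth, Jag2 in club-like nuclei overlapped between the genotypes. The part of tumor-derived RNA in these differences was not tested. Notch2 in alveolar type 2-like nuclei was at 172, 138, 93.1 and 60.6 CPM (-1.08, SE 0.33, edgeR, adjusted p = 0.241). Its log2 fold change was -1.31 without RPC1 and -0.63 without the clusters of high depth. The class's own markers summed to 5637, 8301, 4103 and 1120 CPM. The neuroendocrine markers in this class stood at 61.9%, 55.3%, 64.6% and 90.6% of their tumor level. The part of these in the Notch2 values was not tested. Notch3 in fibroblast-like nuclei was at 85.9, 60.2, 43.4 and 26.7 CPM (-1.08, SE 0.46). The own markers of fibroblast-like nuclei summed to 3898, 2576, 2968 and 1787 CPM. Their neuroendocrine markers stood at 38.2%, 52.9%, 42.1% and 60.6% of the tumor level, and the part of these was not tested. Dll4 in smooth muscle or pericyte-like nuclei was at 17.8, 19.1, 9.22 and 6.64 CPM (-1.34, SE 0.49). The difference between the genotype effect in a class and that in tumor-like nuclei was tested for all 90 pairs of member and class, and none passed. In those tests edgeR called 0.566% of all genes in alveolar type 2-like, 0.435% in smooth muscle or pericyte-like, 0.426% in endothelial-like, 0.231% in fibroblast-like, 0.162% in club-like, 0.0938% in B cell-like, 0.0626% in T or NK cell-like, 0.0478% in macrophage or monocyte-like and 0.0225% in alveolar type 1-like nuclei. The lowest p belonged to Notch3 in smooth muscle or pericyte-like nuclei (-0.75, SE 0.22, edgeR, adjusted p = 0.125).

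Summed over all kept nuclei of an animal, which needs no class names, 0 of 10 members and 0 of 21405 genes (0%) were called by edgeR. Jag2 was at -0.75 (SE 0.14, edgeR, adjusted p = 0.266), Dll3 at -0.97 (SE 0.29, edgeR, adjusted p = 0.286) and Jag1 at -0.63 (SE 0.23, edgeR, adjusted p = 0.304). In such sums fewer nuclei of a class and less RNA per nucleus cannot be told apart. Without the filter on low counts Jag2 passed (-0.69, edgeR, adjusted p = 0.029), together with 1551 genes.

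The other genes of the pathway were 49, of which 44 had enough counts for the test in tumor-like nuclei. None passed, and 12 (9 lower and 3 higher in RPC) had an unadjusted p under 0.05, or 27.3% against 15.2% of all genes. Their median log2 fold change was -0.16. The corepressor gene Tle4 was lowest among the better expressed, at 32.5, 56.8, 17.5 and 22.4 CPM (-1.21, SE 0.31, edgeR, adjusted p = 0.279). Below 0 also was Dtx1, a regulator of receptor turnover, at 60.2, 43.8, 20.7 and 42.8 CPM (-0.77, SE 0.40).

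At the other end stood Aph1b, a gamma-secretase subunit, at 6.25, 8.13, 13.5 and 12.2 CPM (0.78, SE 0.24, edgeR, adjusted p = 0.289). Maml3, a coactivator of the receptor's intracellular domain, was at 1401, 1163, 2597 and 1392 CPM (0.57, SE 0.33), where RPC1 stood apart from the other 3 animals. Fbxw7, which marks that domain for degradation, was at 132, 162, 209 and 220 CPM (0.49, SE 0.15). Of these 5 genes, Maml3 alone had genotypes whose animals overlapped, against 50.6% of all genes without overlap. The 5 were picked for the size of their fold change in this comparison, which favors genes without overlap. The count is therefore no evidence about the pathway.

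Genes whose levels followed a member most closely were listed over 43 sums of class and animal, as a description, for the 5 members with a mean of at least 20 CPM. Notch3 went with Pdgfrb, a receptor of mural cells (Pearson r = 0.75), Dmd and Col12a1. Notch2 went with Runx1, a hematopoietic transcription factor (r = 0.80), Cd44 and Myof, and Notch1 with Elk3 (r = 0.70), Epas1, a hypoxia-response factor of endothelium, and Hmbox1. Jag1 went with Gpc4 (r = 0.63), Tnfaip1 and Mprip. Jag2 went with Pex5l (r = 0.84), Dok7 and Syt9. The sums share animals and libraries, so these correlations carry no test.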

How the data were processed

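Single-nucleus transcripts were measured in frozen lung tumors of 4 mice, 2 RP and 2 RPC, with the Parse split-pool chemistry. The authors deposited counts: 1 sparse matrix of unnormalized transcript counts per animal, made with the Parse pipeline on GRCm39, with a gene table and a table of nuclei, of which 8 of 12 columns were not used. The samples listed for the series are 7 sublibraries that pool the animals, so groups come from the mouse and genotype labels. Separate animals are separate tumors, and counts of animals of a genotype differed by more than sampling noise (mean chi-square per gene 66.2 in RP and 137.9 in RPC).

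Nuclei with under 300 transcripts, over 10% mitochondrial transcripts or over 12000 genes were removed, the study's limits; no doublet caller was run. Counts were log-normalized, 2000 variable genes (members left out) and 20 principal components were used, and Leiden clustering (leidenalg 0.10.2, resolution 0.4, non-tumor nuclei again at 2) was followed by naming from 13 marker lists. The naming limits, the second resolution and the definition of clusters of high depth (median at least 2 times that of the animal) were set after seeing the data.

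Counts were summed per animal and class (at least 20 nuclei) and fitted with edgeR 4.0.16 (quasi-likelihood, TMM, filterByExpr) in R 4.3.3, with Benjamini-Hochberg adjustment over all genes tested. DESeq2 1.42.0, other scalings and filters, a replicate block, leaving out each animal, other clusterings and other depths were alternatives. CPM values are counts over the plain total, and SE is the log2 fold change over the root of F. Simulated data for the RPC against RP comparison of tumor-like nuclei (20051 genes) were used to test edgeR. It recovered 72% of 2-fold and 100% of 4-fold increases, and 58% and 90% of decreases to 0.5 and 0.25, with 7 false calls. The simulated spread between animals was the same for every gene and smaller than that of the data (coefficient of variation 0.285). These shares therefore overstate what the comparison could find. Intervals cover counting error only. The 10 members, the 49 other pathway genes and the marker lists were chosen with earlier results of these data known. The genes named are all members, the deleted genes, the 3 highest and 3 lowest other pathway genes with a log2 CPM of at least 3, and the 3 genes most like each member. Results on 2 genes are not reported here.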

Additional observations from a re-analysis of the deposited data

Results flagged for a closer look

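Among the members, no difference between the genotype effect in a class and that in tumor-like nuclei passed the threshold. Among the other pathway genes, 2 did. The effect of RPC against RP on Notch4, a receptor of endothelium, differed by -1.67 on the log2 scale between endothelial-like and tumor-like nuclei (SE 0.31, edgeR, adjusted p = 8.0e-05). Notch4 was at 168, 103, 99.1 and 45.4 CPM in endothelial-like nuclei, where the order is RP1, RP2, RPC1, RPC2, and at 4.75, 4.60, 7.89 and 7.30 CPM in the tumor-like nuclei. It was lower in both RPC animals in the former and higher in both in the latter. RPC2 was the lowest animal for endothelial Notch4, as it was for endothelial Notch1 and Dll4.

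The effect on Neurl1b, a ubiquitin ligase for Notch ligands, differed by 1.46 between alveolar type 2-like and tumor-like nuclei (SE 0.38, edgeR, adjusted p = 0.032). It was at 38.2, 63.1, 175 and 150 CPM in alveolar type 2-like nuclei, on 4, 26, 96 and 550 transcripts. Tumor-like nuclei held it at 200, 124, 172 and 165 CPM. The neuroendocrine markers in alveolar type 2-like nuclei stood at 61.9%, 55.3%, 64.6% and 90.6% of their tumor level. The class's own markers summed to 5637, 8301, 4103 and 1120 CPM. In these tests edgeR called 0.426% of all genes for endothelial-like and 0.566% for alveolar type 2-like nuclei. In alveolar type 2-like nuclei of RPC2, 86 of 155 nuclei lay in clusters of high depth, against 3 of 23, 9 of 100 and 10 of 59 in the other animals. The part of these differences between animals in the Neurl1b values was not tested.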

How the results depend on the processing

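In tumor-like nuclei, 0 members passed under every alternative run. The count over all genes, 0, was 671 with DESeq2, 9 without the filter on low counts and 0 to 3 with 1 animal left out, and DESeq2 called 2 other pathway genes (Heyl and Tle4). Notch1 turned to 0.0083 with DESeq2 and 0.026 without the filter. With 1 animal left out, Notch1 ranged from -0.51 to 0.33 and Notch3 from -0.47 to 0.71. Over all kept nuclei, 1 member and 1551 genes passed without the filter and 689 genes with DESeq2, and leaving out 1 animal gave -0.84 to 0.35 for Notch1, -0.19 to 0.059 for Notch2, -1.01 to 0.11 for Notch3 and -0.70 to 0.032 for Hes6. In the other classes, members passing went from 0 to 1 without the filter and to 0 to 4 with 1 animal left out (4 without RPC1). Over all genes there, 19 calls became 226 with DESeq2, 1995 without the filter, 397 with the replicate block, 10 without the clusters of high depth and 174 to 1611 with 1 animal left out. Members lower in a class than in tumor-like nuclei, 5, became 3 with members among the variable genes, 12 without the clusters of high depth and 2 to 4 with 1 animal left out. Shares of all genes under these settings are not given for that count. Members found in a smaller share in both RPC animals, 6, became 1 without thinning, where 3 were found in a larger share in both. Share differences turned, in percentage points, to 0.991 for Dll1, 0.068 for Dll4, 0.312 for Notch1, 2.52 for Notch2 and 0.984 for Hes6 without thinning, to 0.050 for Notch1 at 2000 transcripts and to -0.059 for Notch3 at 500. With 1 animal left out they ranged from -0.055 to 0.260 for Notch3, -0.0024 to 0.196 for Hes1 and -0.671 to 0.075 for Hes6. The cause of these moves was not tested.

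The numbers of the animals are names only: deviations of RP1 and RPC1 had a correlation of -0.04 over 20051 genes. With the replicate block 0 members passed in tumor-like nuclei (Jag2 -0.78, edgeR, adjusted p = 0.382).

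With 2 animals per genotype, differences of members under 10 CPM had an SE of up to 0.52 on the log2 scale, and in small classes a few transcripts set a level.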

Other observations

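In the unnamed, shallow nuclei, Hes6 was at 28.1, 26.9, 28.7 and 52.7 CPM (RP1, RP2, RPC1, RPC2), above the tumor-like level of the same animal in 4 of 4 animals. Its mean of 34.1 ± 12.4 CPM (SD, n = 4) did not differ beyond the spread from that of ciliated-like nuclei, 26.9 ± 13.3 CPM. Dll1 was also above it in 4 of 4, at 19.7, 21.5, 10.6 and 17.0 CPM, on 51 transcripts in all. Jag2 was below it in each animal, at 53.4, 68.5, 67.0 and 49.6 CPM. The neuroendocrine markers in the unnamed nuclei stood at 124%, 99.3%, 126% and 125% of their tumor level. These nuclei carried no class name and entered no comparison of classes.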
